A study of Mus musculus with 18 samples.

Results

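Near the chromosomal positions of E2f1, E2f2 and E2f3, 10 genes were chosen by their level in crypts lacking those 3 genes, which differed at least 2-fold from that in control crypts, and by their distance, under 20 Mb. They are Rims4 and Bfsp1 on chromosome 2, near E2f1, then Cap1, 9930104L06Rik, Agmat, Rbp7, Tnfrsf14 and C1qtnf12 on chromosome 4, near E2f2, and Amph and Epdr1 on chromosome 13, near E2f3. They make up 10 of the 18193 genes measured and are read by 17 probe sets. They were selected on the E2f TKO and control arrays, where 5 are higher and 5 lower in E2f TKO, so that difference is given as values with no test and nothing is read from it. In all, 0.945% of genes differed 2-fold between those groups (0.478% higher and 0.467% lower). The list is not complete, as 21 of the 1179 measured genes within 20 Mb met both limits, and the other 11 are given after the 10.

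Biotin-labelled total RNA from intestinal crypts of 2-month-old mice was hybridised to 18 arrays in 4 groups. Mice lacking E2f1, E2f2, E2f3 and Myc (E2f/Myc QKO, called QKO) gave 5 arrays, mice lacking E2f1, E2f2 and E2f3 (E2f TKO) gave 5, mice lacking Myc (Myc KO) gave 4, and control mice gave 4. Ah-cre, an inducible Cre driven by the Cyp1a1 promoter, which acts in intestinal epithelium, was used for ablation, and crypts were taken 2 days after it. Whether E2f1 and E2f2 were deleted by Ah-cre or inherited as deleted alleles is not given by the labels. The labels do not give the strain, the sex, the exact alleles of the control mice or whether they carried the Cre, and they do not say that each array is a separate mouse, so p-values measure only the spread between these samples.

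E2F1, E2F2 and E2F3 are transcription factors that bind promoters of genes for DNA replication and cell division, and MYC is a transcription factor that drives growth of dividing crypt cells. An engineered allele also carries, as background knowledge, a stretch of the flanking chromosome of the embryonic stem cells in which it was made, and that stretch stays linked to the allele through breeding. No label separates a deletion from such a stretch, so they cannot be told apart by group, and the part of linked variants was not tested. RNA was measured in bulk, so fewer cells of a type and less RNA per cell cannot be told apart.

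Values are log2 signals between 2.29 and 14.81, with array medians of 6.14 to 6.26 and no detection calls, so a low signal is not told from background. The Myc probe set read 7.94 to 8.52 in QKO, 9.99 to 10.66 in E2f TKO, 8.11 to 8.40 in Myc KO and 9.69 to 10.30 in control. The E2f3 probe set read 8.09 to 8.19 in QKO, then 8.22, 9.35, 8.39, 8.08 and 9.10 in E2f TKO, 8.44 to 8.60 in Myc KO and 8.62 to 8.96 in control. The E2f1 and E2f2 probe sets did not separate the groups, and whether they lie in the deleted stretch is not known. The arrays labelled E2f TKO 2 and 5 stand apart: their E2f3 signal is above that of every control, and Cyp1a1 read 5.05 and 4.91 on them against 12.66 to 14.09 on the other 16 arrays. The E2f3 values go against the loss of E2f3 given by their label, and the E2f1 and E2f2 probe sets do not settle the rest of it. These 2 arrays are among those that chose the genes, so where they lie for the 10 genes does not check the label. With both left out of the fit, 6 of the 10 genes and 1774 of all genes passed in QKO minus Myc KO, and all 10 stayed past 2-fold in E2f TKO minus control. Xist, a mark of female samples, read 6.62 to 6.74 in Myc KO. It was high on QKO 4 and 5 (13.40 and 13.01), E2f TKO 1 and 4 (12.02 and 12.54) and control 3 (12.60). By this signal sex is not balanced between QKO and Myc KO. With Xist as a covariate, 987 genes passed in QKO minus Myc KO against 1398 without it. Within 20 Mb the counts were 74 and 101, and 6 of the 10 genes passed in both fits. The 6 epithelial markers summed to signals of 52428 to 57199 over all QKO and E2f TKO arrays and 51706 to 56663 over Myc KO and control arrays, so epithelial signal was high in every group.

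Promoter sequences were available for 8 of the 10 genes, in 9 entries, and 4 are shown. These belong to the genes with the largest differences and to the 2 whose level in QKO departs most from that in E2f TKO. Each is the 250 bases before the annotated start, 5′ to 3′ on the gene's strand, from RefSeq (GRCm38.p6), with CCAAT or its reverse complement ATTGG in capitals.
Rbp7 (chr4:149454969-149455218, minus strand): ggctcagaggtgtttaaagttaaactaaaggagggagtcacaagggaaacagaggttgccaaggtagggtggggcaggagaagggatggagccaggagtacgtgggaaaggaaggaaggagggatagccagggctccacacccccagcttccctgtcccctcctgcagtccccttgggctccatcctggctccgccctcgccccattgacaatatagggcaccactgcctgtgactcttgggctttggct
Amph (chr13:18948101-18948350, plus strand): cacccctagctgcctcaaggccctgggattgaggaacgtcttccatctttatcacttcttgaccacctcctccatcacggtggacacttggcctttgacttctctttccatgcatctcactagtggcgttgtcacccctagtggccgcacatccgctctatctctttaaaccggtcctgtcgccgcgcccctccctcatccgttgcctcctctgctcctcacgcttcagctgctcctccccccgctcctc
Cap1 (chr4:122886077-122886326, minus strand): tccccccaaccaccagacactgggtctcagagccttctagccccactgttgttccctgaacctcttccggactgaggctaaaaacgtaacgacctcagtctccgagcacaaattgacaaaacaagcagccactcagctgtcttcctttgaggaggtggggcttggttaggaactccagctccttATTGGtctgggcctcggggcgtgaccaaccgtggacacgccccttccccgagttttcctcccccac
9930104L06Rik (chr4:124936798-124937047, plus strand): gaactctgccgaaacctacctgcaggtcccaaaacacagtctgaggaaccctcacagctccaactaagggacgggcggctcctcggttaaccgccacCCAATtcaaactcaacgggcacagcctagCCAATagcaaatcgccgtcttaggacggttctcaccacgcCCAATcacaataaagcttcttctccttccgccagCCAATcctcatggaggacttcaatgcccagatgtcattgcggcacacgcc
Capitals mark 1 match in the Cap1 window, 62 bases before the start, and 4 in the 9930104L06Rik window, at 149, 120, 80 and 46 bases. The letters CCAAT on either strand occur in 33.8% of 32851 promoters of this length. An E2F-type motif (TTTCGCGC, TTTGGCGC, TTTCCCGC or TTTGCCGC on either strand) occurs in 1.86% of them and an E-box, the letters of the MYC motif (CACGTG), in 6.02%. Among the windows of the 8 genes there were 0 matches to either motif, which says only that these letters are not in these windows.

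The 2-fold limit did not use the QKO and Myc KO arrays, which differ by the same 3 E2f deletions on a Myc-deleted background, but the 10 genes were taken from the 21 with results of all arrays known. In that comparison Amph, Epdr1 and Agmat rose and Rbp7, Rims4 and C1qtnf12 fell, 6 of the 10 (limma, adjusted p below 0.05 over all 18193 genes), while 7.68% of all genes passed (4.6% higher and 3.09% lower). That background was 1398 genes, and it was 970, 951, 918 and 921 without Myc KO 1, 2, 3 and 4 in turn. It was 1026 without QKO 2 and 1009 without QKO 4. At least 6 of the 10 genes passed when any array was left out. The median size of the difference was 1.5 on the log2 scale over the 10 genes and 0.11 over all genes. The sign matched that of E2f TKO minus control in 8 of the 10 genes, the exceptions being Cap1 and 9930104L06Rik. QKO and Myc KO arrays did not overlap for 7 of the 10 genes, against 13.7% of all genes.

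**Figure D1:**
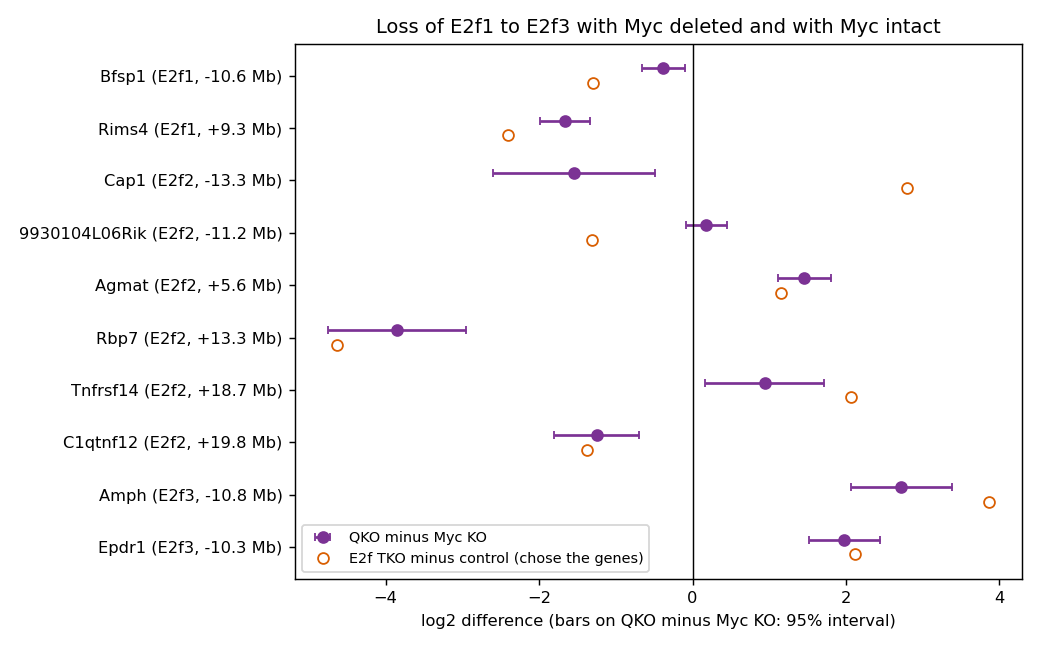
Log2 differences of the 10 genes, by chromosomal locus, with distance from the deleted gene in Mb; filled points are QKO minus Myc KO with the 95% interval of the limma fit, and open points are E2f TKO minus control, which chose the genes. Cap1 lies at -1.55 in QKO minus Myc KO and at 2.80 in E2f TKO minus control, and Rbp7 is lowest in both, at -3.85 and -4.63.

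Rims4 lies 9.3 Mb above E2f1 in coordinate and encodes a short member of the RIM family, which works with calcium channels at presynaptic active zones. It read 6.29, 6.16, 6.13, 5.61 and 6.13 in QKO and 6.42, 6.38, 6.47, 6.46 and 6.20 in E2f TKO. It read 7.66, 7.42, 8.03 and 7.79 in Myc KO and 8.92, 8.37, 8.64 and 9.19 in control. The arrays labelled QKO and E2f TKO are all below the 4 Myc KO arrays, which are all below the 4 control arrays. Rims4 fell by 1.66 in QKO relative to Myc KO (SE 0.16, 95% interval -1.99 to -1.33), a 3.16-fold difference, with an adjusted p of 1.1e-05 by limma. In E2f TKO minus control it gave -2.40. It was also lower in Myc KO than in control, by a log2 difference of -1.06 (SE 0.17, 2.08-fold, adjusted p = 0.00144 by limma), the only one of the 10 genes to pass there, though the control arrays of that test also served to choose Rims4 for being higher in control. A second probe set of Rims4 gave -1.30 for QKO minus Myc KO (adjusted p = 2.94e-05 by limma) and -0.61 for Myc KO minus control (adjusted p = 0.014).

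Bfsp1 lies 10.6 Mb below E2f1 and encodes filensin, a protein of the beaded filaments of the eye lens. Its level was 6.36, 6.60, 6.80, 5.96 and 6.51 in QKO and 5.76, 5.90, 5.98, 5.73 and 5.99 in E2f TKO. It was 6.74, 6.95, 6.96 and 6.66 in Myc KO and 6.98, 7.42, 7.17 and 7.11 in control. E2f TKO arrays are below all others except QKO 4, and QKO and Myc KO arrays overlap. QKO minus Myc KO was -0.38 (SE 0.13, 95% interval -0.66 to -0.10), which did not pass (adjusted p = 0.0978 by limma). E2f TKO minus control was -1.30 and QKO minus control -0.72, comparisons that share the control arrays.

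Cap1 lies 13.3 Mb below E2f2 and encodes a cyclase-associated protein that helps to recycle actin monomers. Its signal on the linear scale was 298, 202, 314, 401 and 321 in QKO and 2721, 2310, 2263, 2244 and 2360 in E2f TKO. It was 1597, 1905, 454 and 428 in Myc KO and 1299, 175, 259 and 230 in control. E2f TKO arrays are all above every other array, QKO arrays lie with control arrays 2, 3 and 4, and the Myc KO group splits, with arrays 1 and 2 high and arrays 3 and 4 low, as control array 1 stands above the other 3. On the log2 scale E2f TKO minus control was 2.80 and QKO minus control -0.18. QKO minus Myc KO was -1.55 (SE 0.50, 95% interval -2.60 to -0.49), which did not pass (adjusted p = 0.0699 by limma), though the arrays of the 2 groups do not overlap. It passed without control 1 (adjusted p = 0.0146 by limma), without Myc KO 4 (0.0451) and in a fit of QKO and Myc KO alone (0.0492). The other Cap1 probe set gave 2.92 for E2f TKO minus control and -1.68 for QKO minus Myc KO.

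9930104L06Rik lies 11.2 Mb below E2f2. It read 6.28, 6.43, 6.22, 6.44 and 6.45 in QKO and 5.12, 4.94, 5.15, 5.24 and 4.81 in E2f TKO. It read 5.95, 6.04, 6.30 and 6.42 in Myc KO and 5.95, 6.55, 6.44 and 6.52 in control. The 5 E2f TKO arrays are below the other 13, and QKO arrays overlap both Myc KO and control arrays. E2f TKO minus control was -1.31, and QKO minus Myc KO was 0.18 (SE 0.13, 95% interval -0.08 to 0.45, adjusted p = 0.444 by limma), an interval that does not reach a 2-fold difference. Cdca8, which encodes a subunit of the chromosomal passenger complex that acts in mitosis, starts 0.067 kb away and differed by -0.20 in QKO minus Myc KO (adjusted p = 0.603).

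Agmat lies 5.6 Mb above E2f2 and is annotated as agmatinase, an enzyme that cleaves agmatine to putrescine and urea. It read 11.67, 11.72, 11.59, 11.87 and 12.01 in QKO and 11.75, 11.46, 11.68, 11.89 and 11.65 in E2f TKO. Its level was 10.02, 10.83, 10.14 and 10.28 in Myc KO and 11.04, 10.31, 10.38 and 10.37 in control. All arrays labelled QKO or E2f TKO are above the 8 others, of which control 1 and Myc KO 2 are highest. Agmat rose by 1.45 in QKO relative to Myc KO (SE 0.16, 95% interval 1.11 to 1.80), 2.74-fold, with an adjusted p of 3.95e-05 by limma. E2f TKO minus control was 1.16, the smallest of the 10 genes. Dnajc16, which encodes a DnaJ-family protein and lies 2.73 kb from Agmat, rose by 0.64 as well (SE 0.12, adjusted p = 0.00301 by limma), with 0.70 for E2f TKO minus control.

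Rbp7 lies 13.3 Mb above E2f2 and encodes a cytosolic retinol-binding protein of the fatty acid-binding protein family. Its level was 6.64, 5.81, 6.33, 5.94 and 6.23 in QKO and 6.53, 5.49, 7.46, 7.42 and 5.64 in E2f TKO. It was 10.56, 8.88, 10.31 and 10.42 in Myc KO and 10.23, 11.13, 11.60 and 11.58 in control. Every array labelled QKO or E2f TKO is below the 8 others, the lowest of which is Myc KO 2. Rbp7 fell by 3.85 in QKO relative to Myc KO (SE 0.43, 95% interval -4.75 to -2.95), a 14.4-fold difference, with an adjusted p of 3.67e-05 by limma. The difference of E2f TKO minus control was -4.63, which became -4.0 when E2f TKO 2 and 5 were left out and -5.57 for those arrays alone. Nmnat1, an enzyme gene of nuclear NAD synthesis that lies 1.11 kb away, gave 0.34 in QKO minus Myc KO (adjusted p = 0.102 by limma).

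Tnfrsf14 lies 18.7 Mb above E2f2 and encodes HVEM, a receptor for LIGHT and BTLA that is present on immune and intestinal epithelial cells. It read 8.09, 8.13, 7.84, 8.24 and 7.48 in QKO and 8.33, 8.63, 7.84, 7.84 and 8.75 in E2f TKO. It read 6.34, 7.57, 6.42 and 7.73 in Myc KO and 7.53, 5.62, 5.56 and 6.12 in control. Myc KO arrays 2 and 4 and control 1 are higher than the rest of their groups, and QKO 5 lies below Myc KO 2 and 4. QKO minus Myc KO was 0.94 (SE 0.37, 95% interval 0.16 to 1.72), which did not pass (adjusted p = 0.144 by limma), and E2f TKO minus control was 2.07. T cell markers, 5 measured of 6, summed to 967 to 2825 in QKO, 557 to 7940 in E2f TKO, 1759 to 3222 in Myc KO and 986 to 4310 in control, ranges that overlap, and their part in the Tnfrsf14 signal was not tested.

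C1qtnf12 lies 19.8 Mb above E2f2, nearly at the limit, and encodes adipolin, a secreted protein of the C1q/TNF family. It read 10.51, 10.29, 10.07, 9.52 and 10.59 in QKO and 11.40, 10.48, 10.38, 10.33 and 10.55 in E2f TKO. It read 11.85, 10.98, 11.91 and 11.07 in Myc KO and 11.53, 12.25, 12.18 and 12.04 in control. QKO arrays are all below Myc KO arrays, and E2f TKO 1 is higher than the other 4 of its group. C1qtnf12 fell by 1.25 in QKO relative to Myc KO (SE 0.26, 95% interval -1.80 to -0.70), 2.39-fold, with an adjusted p of 0.00617 by limma. In E2f TKO minus control it gave -1.37. Of its other 3 probe sets, 2 fell as well, by 1.52 and 1.10 (adjusted p = 0.00117 and 0.00528 by limma), and the third read -0.09 (adjusted p = 0.669). Adipocyte markers, 3 measured of 4, summed to 159 to 275 in QKO, 114 to 532 in E2f TKO, 194 to 252 in Myc KO and 143 to 225 in control.

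Amph lies 10.8 Mb below E2f3 and encodes amphiphysin, a BAR-domain protein that bends membranes in endocytosis and is best known from nerve terminals. Its level was 6.26, 6.89, 6.86, 7.22 and 6.72 in QKO and 6.32, 8.57, 7.29, 7.54 and 8.30 in E2f TKO. It was 4.01, 4.30, 3.98 and 4.00 in Myc KO and 3.78, 3.66, 3.81 and 3.69 in control. The Myc KO and control arrays are all below every array labelled QKO or E2f TKO, and the highest of all are those labelled E2f TKO 2 and 5, whose E2f3 signal is above every control. Amph rose by 2.72 in QKO relative to Myc KO (SE 0.31, 95% interval 2.06 to 3.38), 6.58-fold, with an adjusted p of 4.89e-05 by limma. The difference of E2f TKO minus control was 3.87, and 3.32 with E2f TKO 2 and 5 left out.

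Epdr1 lies 10.3 Mb below E2f3, on the same side as Amph, and encodes an ependymin-related glycoprotein. It read 7.38, 7.39, 7.45, 7.65 and 7.80 in QKO and 7.94, 7.14, 7.95, 8.23 and 7.45 in E2f TKO. It read 4.94, 5.76, 5.63 and 5.88 in Myc KO and 5.69, 6.04, 5.48 and 5.27 in control. The arrays labelled QKO and E2f TKO do not overlap those of Myc KO and control. Epdr1 rose by 1.98 in QKO relative to Myc KO (SE 0.22, 95% interval 1.52 to 2.44), 3.95-fold, with an adjusted p of 3.48e-05 by limma, and E2f TKO minus control was 2.12. Its other 2 probe sets rose by 2.70 and 0.63 (adjusted p = 5.5e-06 and 0.0095 by limma).

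**Figure D2:**
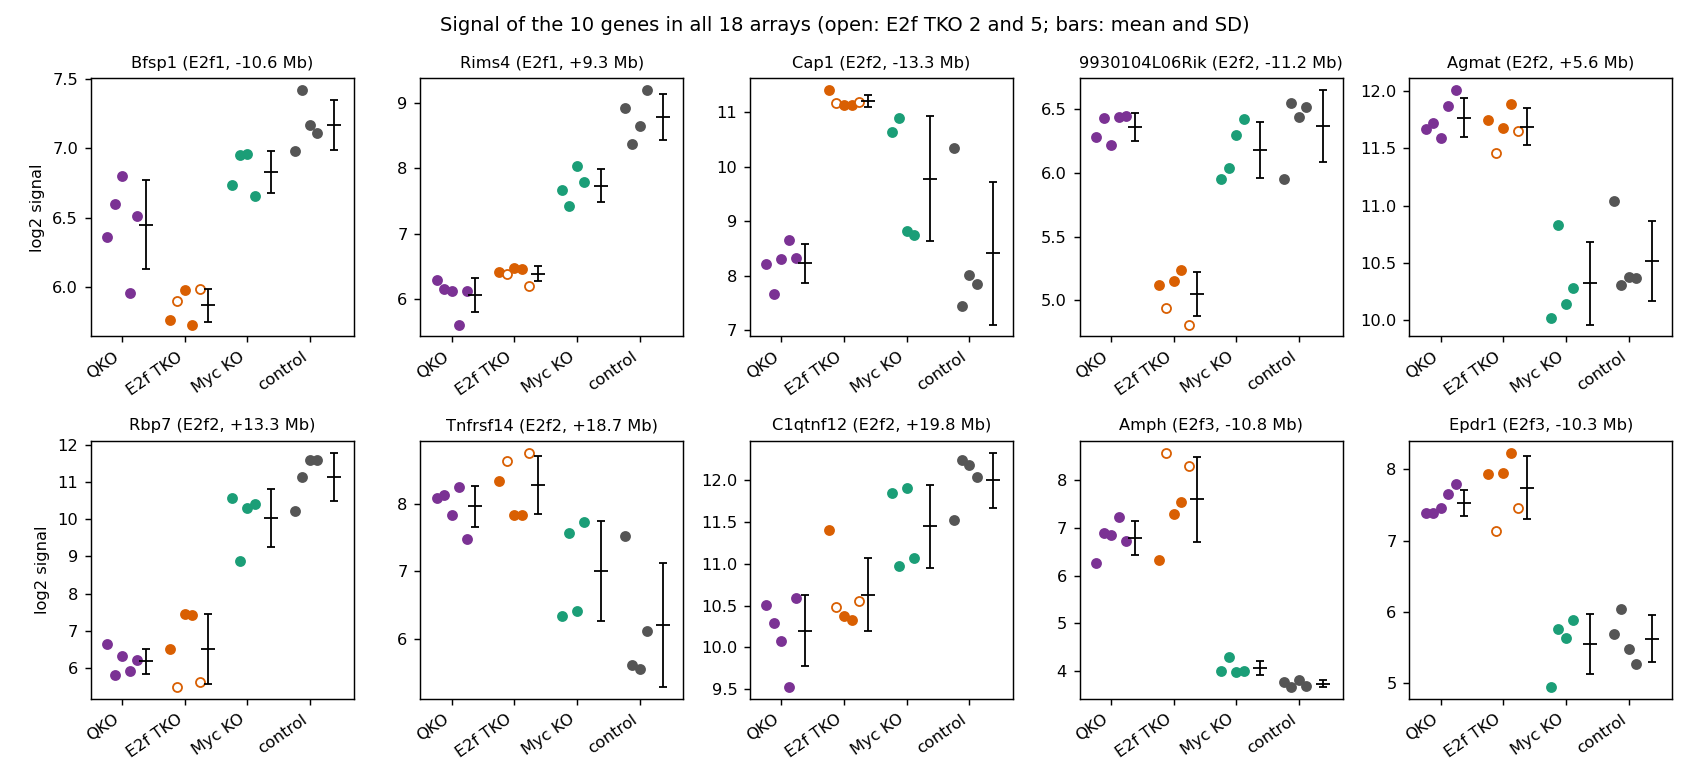
Log2 signal of the 10 genes on each array, with the mean and SD of each group, for QKO (5 arrays), E2f TKO (5, with arrays 2 and 5 open), Myc KO (4) and control (4). Rbp7 lies between 5.49 and 7.46 on the arrays labelled QKO and E2f TKO and between 8.88 and 11.60 on the others, and Cap1 lies between 11.13 and 11.41 in E2f TKO and between 7.66 and 8.65 in QKO.

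Amph and Rims4 are best known from neurons, and markers of enteric neurons and glia (5 measured of 7) summed to 212 to 240 in QKO, 177 to 214 in E2f TKO, 163 to 188 in Myc KO and 160 to 169 in control. In QKO relative to Myc KO, the sums do not overlap and 1 of these 5 rose, S100b, a calcium-binding gene of glia, by 0.91 (adjusted p = 9.2e-05 by limma). S100b averaged 6.53 in QKO, 5.99 in E2f TKO, 5.61 in Myc KO and 5.54 in control. The neuronal Snap25, a dim signal, averaged 3.85 in QKO, 3.79 in E2f TKO, 3.75 in Myc KO and 3.58 in control. In QKO and Myc KO, Elavl4 averaged 4.27 and 4.31, Tubb3 4.88 and 4.88, and Gfap 6.01 and 5.92, so the list does not rise as a whole. Amph rose while Rims4 fell, and the part of these cells in either was not tested. Rbp7 is also found in endothelium, whose 6 markers summed to 279 to 341 in QKO, 242 to 293 in E2f TKO, 258 to 308 in Myc KO and 241 to 312 in control, ranges that overlap, and their part in the Rbp7 signal was not tested. Mast cell markers fell in QKO relative to Myc KO (4 of 5), with sums of 341 to 406 in QKO, 321 to 476 in E2f TKO, 788 to 2816 in Myc KO and 568 to 760 in control. Enteroendocrine markers rose in 2 of 7, with sums of 16431 to 22901 in QKO, 14371 to 16090 in E2f TKO, 11866 to 15065 in Myc KO and 8380 to 11031 in control. Tuft cell markers rose in 1 of 5, with sums of 746 to 1060 in QKO, 507 to 690 in E2f TKO, 622 to 640 in Myc KO and 503 to 541 in control. The part of any of these cells in the 10 genes was not tested. No marker is at 0, since array signals have no true 0.

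The share of the 10 genes that passed in Myc KO against control was near that of all genes. This comparison shares its control arrays with the choice of the genes. In it 1 of the 10 passed, Rims4, against 8.31% of all genes (3.59% higher and 4.72% lower). An unadjusted p below 0.05 by limma was found for 4 of the 10, and the share of all genes at that limit was not counted. The median size of the difference was 0.45 over the 10 genes and 0.13 over all genes. That background was 1511 genes and was lower without control 1 (1251), control 2 (822), control 3 (982) or control 4 (664). It was also lower without Myc KO 1 (855), Myc KO 2 (640), Myc KO 3 (1085) or Myc KO 4 (1299). Without control 1, Cap1 (2.00, adjusted p = 0.0106 by limma) and Tnfrsf14 (1.25, adjusted p = 0.0312) also passed, making 3. The other differences ran from -1.10 for Rbp7 (adjusted p = 0.146) to 1.36 for Cap1 (adjusted p = 0.122). Arrays of Myc KO and control did not overlap for Amph, Rims4 and Bfsp1. The share of all genes without overlap in this comparison was not counted, so nothing is read from that.

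The chromosome 4 members were also set against control in QKO, side by side with E2f TKO, which chose them. On the lower side of E2f2, Cap1 gave -0.18 in QKO and 2.80 in E2f TKO, and 9930104L06Rik averaged 6.36 in QKO, inside the control range of 5.95 to 6.55, with -1.31 in E2f TKO. On the upper side, Agmat, Rbp7, Tnfrsf14 and C1qtnf12 gave 1.25, -4.95, 1.75 and -1.80 in QKO and 1.16, -4.63, 2.07 and -1.37 in E2f TKO. All these differences subtract the same control arrays, so a shared sign is partly built in and no test is given. Ndufs5, a complex I gene 12.5 Mb below E2f2 that is not among the 10, read 10.86 to 11.21 in QKO, 9.85 to 10.12 in E2f TKO, 10.61 to 11.09 in Myc KO and 10.70 to 11.21 in control and was picked after its values were seen. Of the lower-side genes nearer to E2f2 that met the 2-fold limit, Nr0b2, Zfp593 and Pnrc2 gave 1.55, -1.73 and -1.76 in QKO minus control. In E2f TKO minus control they gave 1.10, -1.12 and -1.06. In Myc KO minus control they gave 0.22, -0.85 and -0.70 (adjusted p = 0.736, 0.00205 and 0.0114 by limma). Zfp593 and Pnrc2 were thus also lower with Myc loss alone. Nr0b2, Zfp593 and Pnrc2 each had the same sign in QKO and in E2f TKO. Cap1, 9930104L06Rik and Ndufs5 were near control in QKO (-0.05 for Ndufs5). Clstn1, a calsyntenin gene 13.4 Mb above E2f2, fell by 0.91 in QKO relative to Myc KO (adjusted p = 0.00107 by limma), with -1.06 for E2f TKO minus control.

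Among the 8 Myc KO and control arrays, single arrays lay toward the E2f TKO level at several chromosome 4 genes at once. Control 1 was the control array nearest the E2f TKO mean for all 6 chromosome 4 members, and for Ndufs5 and Clstn1. Myc KO 2 was the nearest Myc KO array for Cap1, Agmat, Rbp7, C1qtnf12 and Clstn1, while Myc KO 1 was nearest for 9930104L06Rik and Ndufs5 and Myc KO 4 for Tnfrsf14. For Cap1 both Myc KO 1 and Myc KO 2 read high, at signals of 1597 and 1905 against 454 and 428 in the other 2. On the other chromosomes control 1 was nearest for Bfsp1 but not for Rims4, Amph or Epdr1. There Myc KO 2 was also the nearest Myc KO array for Rims4 and Amph, and Myc KO 4 for Bfsp1 and Epdr1. The place of Myc KO 2 is thus not particular to chromosome 4. This order was noticed after the values were seen and was not tested. How often each array is nearest over all genes was not counted, so the order is not read as particular to these genes. Control 1 also stood apart from the other controls for the pancreatic enzyme genes Cela3b (12.80), Cela2a (12.55) and Ctrc (9.21).

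**Figure D3:**
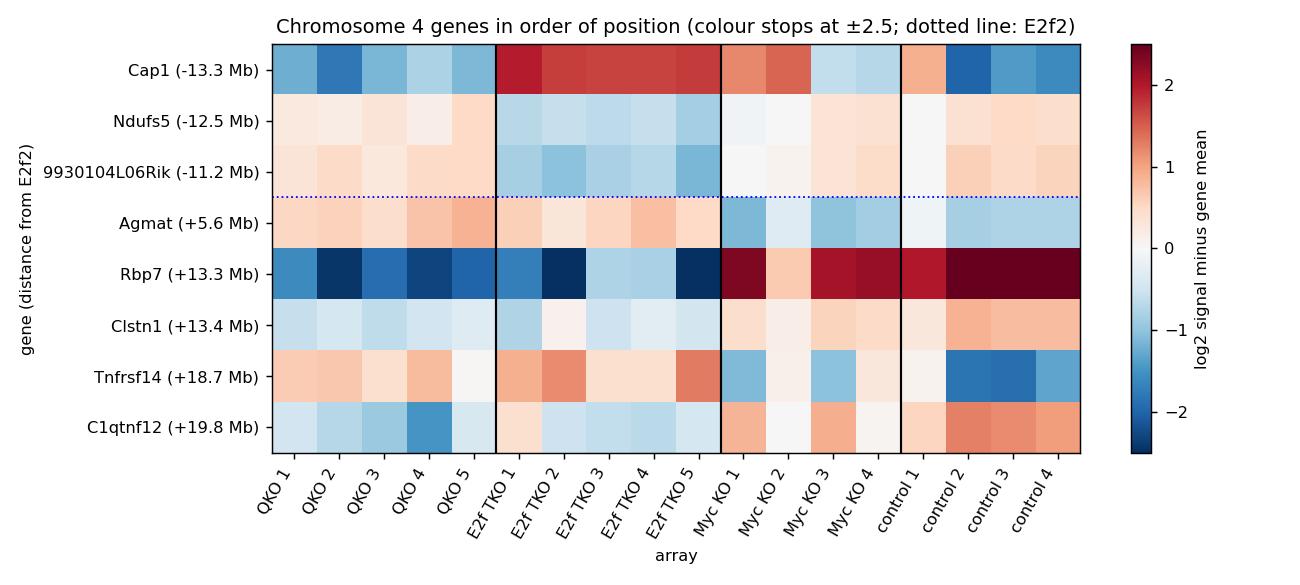
Log2 signal minus each gene's mean over the arrays shown, for the 6 members on chromosome 4 with Ndufs5 and Clstn1, in order of distance from E2f2 (dotted line), on the 18 arrays from QKO through E2f TKO and Myc KO to control; colour stops at 2.5 in either direction. Cap1 is high on all E2f TKO arrays, on Myc KO 1 and 2 and on control 1, and low on all QKO arrays.

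The other 11 genes within 20 Mb that met the 2-fold limit are Zcchc3 near E2f1 and 10 genes near E2f2: Ndufs5, Nr0b2, Zfp593, Pnrc2, Cela3b, Cela2a, Ctrc, Zfp982, Clstn1 and Vwa1. In QKO relative to Myc KO, 5 of the 11 passed, Nr0b2 (1.34) and Zfp982 (1.80) higher and Zfp593 (-0.88), Pnrc2 (-1.05) and Clstn1 (-0.91) lower. Cela3b, Cela2a and Ctrc encode pancreatic digestive enzymes, and were highest on control 1, at 12.80, 12.55 and 9.21. On controls 2, 3 and 4 Cela3b read 7.14, 7.36 and 7.19, Cela2a 4.48, 4.59 and 5.07, and Ctrc 4.91, 5.01 and 5.04. In E2f TKO they read 7.09 to 7.40, 4.24 to 4.58 and 4.90 to 5.05, so these genes met the 2-fold limit through control 1 alone. Cela2a was next highest on Myc KO 1 (8.27) and QKO 3 (8.05). 

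The share of genes called around the deleted genes was near the background. Of 1179 measured genes within 20 Mb, 101 passed in QKO relative to Myc KO, 8.57%, against 7.61% elsewhere, and the median size of the difference was 0.11 in both. The count was 36 of 389 near E2f1, 46 of 546 near E2f2 and 19 of 244 near E2f3. Among the 39 nearest measured neighbours of the 10 genes, up to 2 on each side, 2 passed (5.13%), Dnajc16 next to Agmat and Pabpc1l, a poly(A)-binding protein gene, near Rims4 (0.29, adjusted p = 0.0132 by limma). Their E2f TKO minus control values ran from -0.29 to 0.70, so 0 of the 39 reached 2-fold. Ppt1, which meets Cap1, gave 0.08 in QKO minus Myc KO, and Kcnk15, a potassium channel gene 0.882 kb from Rims4, gave 0.01. Dstn, an actin-severing gene 0.112 kb from Bfsp1, gave -0.20, and Sfrp4, a secreted Wnt-pathway gene 3.35 kb from Epdr1, gave 0.08.

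**Figure D4:**
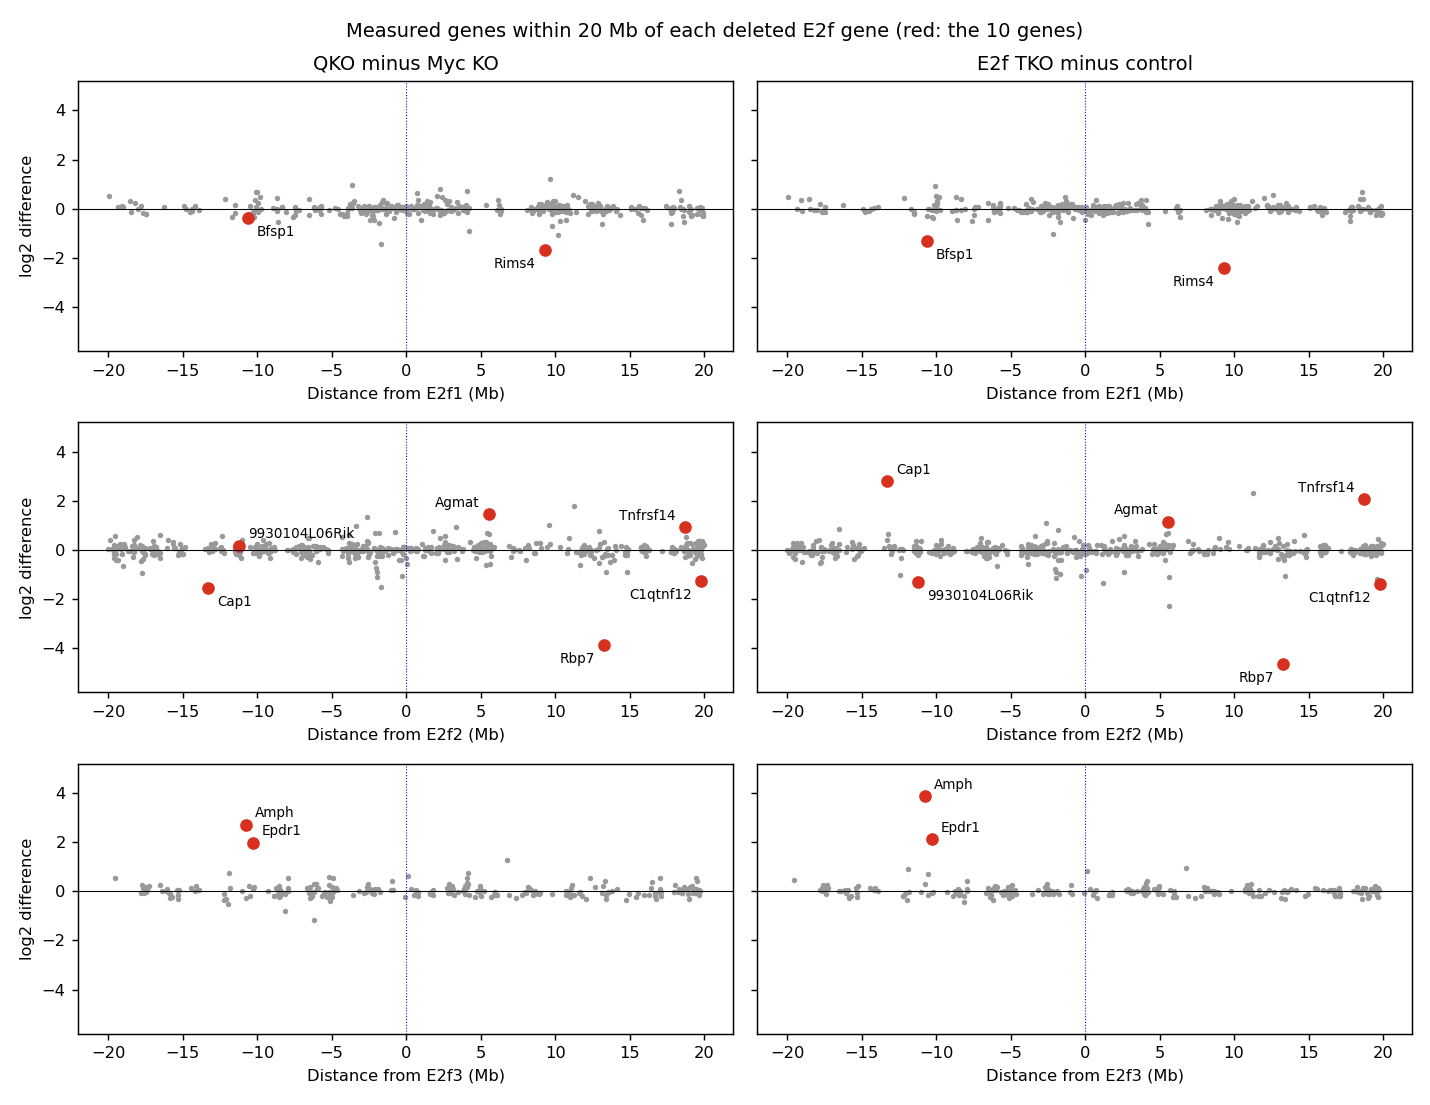
Log2 difference of each measured gene within 20 Mb of E2f1, E2f2 or E2f3 against its distance from that gene in Mb, for QKO minus Myc KO on the left and E2f TKO minus control on the right, with the 10 genes in red. Most genes lie near 0, and Rbp7 (-3.85 in QKO minus Myc KO) and Amph (2.72) lie far outside them.

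Relatives of the 10 genes by function were written as lists, of which 72 of 79 genes were measured. In QKO relative to Myc KO 3 rose and 2 fell (limma), and the median difference was 0.00, against 0.01 over all genes and a background of 7.68% called. Rims2, a longer RIM protein of the active zone encoded on chromosome 15, rose by 1.57 (SE 0.16, adjusted p = 2.4e-05 by limma) to a mean of 6.82 in QKO, against 5.24 in Myc KO, whereas Rims4 fell, and Rims2 gave 0.23 in E2f TKO minus control. It was 1 of 10 active zone genes to pass. Among 12 partners of amphiphysin, Dnm1, the dynamin of nerve terminals, rose by 0.49 and Cltc, the clathrin heavy chain, fell by 0.19 (adjusted p = 0.0348 and 0.0329). Smox, which oxidises spermine, rose by 0.67 (adjusted p = 0.00392) and was 1 of 8 agmatine and polyamine genes to pass, and Ltbr, a receptor that shares the ligand LIGHT with HVEM, fell by 0.27 (adjusted p = 0.0358), 1 of 11 in its list. In limma, 0 of 9 retinoid-binding, 0 of 8 actin turnover, 0 of 9 C1q/TNF and 0 of 5 beaded filament genes passed. Of them, 2, 1, 0 and 0 had an unadjusted p below 0.05, a limit at which the share of all genes was not counted.

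Across the 18 arrays, the gene most like each of the 10 by Pearson r was a description of shared group levels, since all 18 values come from the same 4 groups. 9930104L06Rik was most like Ndufs5 (r = 0.97), its near neighbour on chromosome 4. Agmat was most like Aspg, an asparaginase gene on chromosome 12 (r = 0.97), which rose by 1.96 in QKO relative to Myc KO (adjusted p = 9.87e-06 by limma). Epdr1 ran against Cdkn2c (r = -0.96), an inhibitor of cyclin-dependent kinases that fell by 3.42 (adjusted p = 2.98e-11 by limma). Amph was most like Sdr16c5 (r = 0.95), a retinol dehydrogenase gene, and Rims4 ran against Smim8 (r = -0.95).

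The limits of the choice fall between close values. Just under 2-fold within 20 Mb were Stmn1, at -0.97 in E2f TKO minus control, Nrn1 at 0.94 and Zfp133-ps at 0.92, and just over it, outside the list of 10, were Ndufs5 at -1.01, Zcchc3 at -1.05, and Pnrc2 and Clstn1 at -1.06. The members nearest the limit were Agmat at 1.16, Bfsp1 at -1.30 and 9930104L06Rik at -1.31. The nearest 2-fold genes beyond 20 Mb on the same chromosomes were Cdkn2c (-3.28), which lies at -26.5 Mb from E2f2, and Sqor (1.84) and AA467197 (1.97), at -31.8 and -31.9 Mb from E2f1.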

How the data were processed

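Biotin-labelled total RNA from mouse intestinal crypts was hybridised to 18 arrays, per the labels' protocols. The deposited values are log2 signals, 1 per probe set, with the log2 scale inferred from the range. How probes were summarised and arrays normalized is not stated by the sources used. They were used as deposited. Array number limits precision.

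Of 45101 probe sets, 34945 have 1 gene symbol, 932 several, 9160 none and 64 are controls. A gene is represented by its brightest probe set, by mean over 18 arrays (9010 of 18193 genes have more than 1), without a filter on dim signals. Positions for 18032 genes came from the RefSeq table of GRCm38.p6.

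Limma 3.58.1 (R 4.3.3) fitted 4 group means to all 18 arrays. P-values are two-sided and Benjamini-Hochberg adjusted over 18193 genes, at a threshold of 0.05. P-values of second and further probe sets come from a fit of all 34945 probe sets with 1 symbol and are adjusted over those. On simulated data with these means and spreads, changes of 0.5, 1 and 2 on the log2 scale were recovered in 65.7%, 95.5% and 100% of cases for QKO minus Myc KO, with 6 false calls among 180, and in 62.7%, 92.5% and 95.5% for Myc KO minus control, with 12 among 179. Members and lists were chosen with earlier results of these data known. Named are the 10 genes, label checks, up to 2 neighbours on each side, relatives past the test, the gene most alike and genes near the limits. Clstn1, Ndufs5 and the other 2-fold genes in the windows were chosen after their values were seen. Alternatives were other normalizations, filters, gene summaries, variance models, fits and left-out arrays. Figures used matplotlib 3.10.9 in Python 3.11.15.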

Additional observations from a re-analysis of the deposited data

Results flagged for a closer look

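Among 40 groups of arrays of the 10 genes, 6 held an array far from the rest of its group by Dixon's ratio, where chance gives about 1 in 20. Rbp7 read 8.88 and Amph 4.30 on Myc KO 2. Cap1 read 11.41 and C1qtnf12 11.40 on E2f TKO 1. Rims4 read 5.61 on QKO 4, and Agmat 11.04 on control 1.

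For 2 genes the values of the 2 comparisons of E2f loss have opposite signs. Cap1 gave -1.55 in QKO minus Myc KO, against 2.80 in E2f TKO minus control. 9930104L06Rik gave 0.18 in QKO minus Myc KO, against -1.31 in E2f TKO minus control. Neither passed in QKO minus Myc KO (adjusted p = 0.0699 and 0.444 by limma), and the 9930104L06Rik interval of -0.08 to 0.45 includes 0, so no sign is set there. E2f TKO minus control chose both genes, and the difference between the effects was not tested.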

How the results depend on the processing

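The 6 genes called in QKO minus Myc KO passed, with the same sign, in every alternative run that kept them. With only genes above the median level, 5 of the 10 genes remain in the test, so the counts were 3 called in QKO minus Myc KO, 0 in Myc KO minus control and 5 at 2-fold. Array weights gave 2265 genes in QKO minus Myc KO, 161 of them within 20 Mb, and 3427 in Myc KO minus control with 4 of the 10. Testing every probe set gave 3014 genes in Myc KO minus control and 2 of the 10, and a fit of the 2 groups alone gave 2681 and 2. The cause was not tested for array weights or for the fit of 2 groups. Leaving out each array gave 918 to 2008 genes in QKO minus Myc KO (6 to 7 of the 10, 68 to 141 within 20 Mb) and 640 to 2227 in Myc KO minus control (1 to 3 of the 10), with the low counts named by array in the report. All 10 genes stayed at 2-fold in E2f TKO minus control without any array. Bfsp1 passed in QKO minus Myc KO without QKO 3 (adjusted p = 0.0388 by limma).

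The replicate numbers were not used to pair the samples, and the values do not settle whether they should be. Deviations of same-numbered arrays correlated at 0.15, 0.20, -0.05 and 0.24 for QKO and Myc KO. For Myc KO and control they correlated at 0.25, -0.08, 0.17 and 0.18. QKO 1, 2 and 4 correlated best with the Myc KO array of their own number, and QKO 3 did not. Myc KO 1 and 4 correlated best with the control array of their own number, and Myc KO 2 and 3 did not. With the replicate number as a block, 1545 genes passed in QKO minus Myc KO (7 of the 10, Bfsp1 added at an adjusted p of 0.0192 by limma, and 119 within 20 Mb) and 1821 in Myc KO minus control (2 of the 10).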
